A study of Rattus norvegicus with 18 samples.

Results

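Extracellular signal-regulated kinase (ERK) is the last kinase of the cascade that neurotrophins switch on through Trk receptors, and 10 genes that it induces or that feed back on it were described in rat sensory ganglia: *Spry1*, *Spry2*, *Spry4*, *Dusp4*, *Dusp6*, *Etv4*, *Etv5*, *Egr1*, *Plk2* and *Vgf*. The 10 genes were chosen by name as known targets or brakes of Trk-ERK signalling, with their measured differences between the groups already known, and some of them were also picked out by the study itself from the same rats. Of the 10, 9 were found by gene symbol among the 15075 RefSeq identifiers of the count table, and *Spry1*, for which no identifier was matched here, was not analysed. *Dusp4* stayed below the limit for testing, so that 8 genes were fitted. Because the group differences of these 8 genes were seen before they were chosen, they are given as a description, without a test, and support nothing by themselves. Calls made below on these 8 genes, in any fit, are part of that description.

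Poly(A) RNA was sequenced from whole C6 to C8 dorsal root ganglia (DRG) of 18 adult Lister Hooded rats, with the ganglia of the treated side pooled within each rat. The naive group held 6 unoperated rats without a vector. In the bPYX+GFP group, 6 rats had both corticospinal tracts cut in the medullary pyramids (bilateral pyramidotomy, bPYX) and a day later an injection of AAV1-CMV-GFP, an adeno-associated vector encoding green fluorescent protein, into the forelimb flexors of one side. In the bPYX+NT3 group, 6 rats had the same lesion and the same injection with AAV1-CMV-NT3, which encodes human neurotrophin-3, and ganglia of both injured groups were taken 10 weeks after injury. The CMV promoter is not specific to a cell type, the naive rats had neither lesion nor vector, and exact ages were not given in the sources used here. Levels are given as CPM, the read-pairs of a gene per 1000000 read-pairs on genes, after TMM scaling, a correction for library composition. Between 10057787 and 16002410 read-pairs lay on genes in each library.

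The Trk receptors bind neurotrophins at sensory nerve endings and activate Ras, Raf, MEK and ERK in turn. Activated ERK enters the nucleus and phosphorylates transcription factors, and immediate early genes such as *Egr1* are transcribed within minutes. Part of the same response is inhibitory, because Sprouty proteins act on the steps towards Ras and Raf while dual-specificity phosphatases remove the phosphates from ERK. Neurotrophin-3 binds mainly TrkC, the receptor of the proprioceptive afferents that innervate muscle.

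Sample groups were read from the rat numbers in the heading of the count table, which match the labels of the samples. For 18 of 18 rats the counts in the single file equalled the column headed with its rat number, but 17 of 18 of these files were recorded under the title of another group. The results below use the heading, and with the recorded titles in its place none of the 8 genes was called in any comparison. The group means in the count table published with the study follow from the rats as the heading groups them and not from the titles.

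Among the feedback inhibitors, *Spry2*, a Sprouty protein that restrains Ras-ERK signalling downstream of receptor tyrosine kinases, had a lowest, median and highest level of 21.5, 25.2 and 26.8 CPM in naive rats. In bPYX+GFP rats these were 19.1, 21.5 and 21.9 CPM, and in bPYX+NT3 rats 19.1, 22.8 and 26.4 CPM. All 6 bPYX+GFP rats lay below the naive median and 3 of them below the lowest naive rat, whereas bPYX+NT3 rats were spread over the range of both other groups. The log2 fold change of *Spry2* was -0.25 (SE 0.07) in bPYX+GFP against naive rats, -0.13 (SE 0.09) in bPYX+NT3 against naive rats and 0.12 (SE 0.09) in bPYX+NT3 against bPYX+GFP rats.

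*Spry4*, a second Sprouty that acts at the level of Ras and Raf, spanned 29.8 to 44.3 CPM around a median of 37.7 in naive rats. It spanned 27.8 to 37.6 CPM around 31.8 in bPYX+GFP rats and 31.6 to 52.7 CPM around 39.6 in bPYX+NT3 rats. The highest level of any rat was that of rat 17, treated with NT3, and 4 of 6 bPYX+NT3 rats were above every bPYX+GFP rat. Its log2 fold change was -0.22 (SE 0.11) in bPYX+GFP against naive rats and 0.37 (SE 0.12) in bPYX+NT3 against bPYX+GFP rats. Against naive rats the NT3 group differed by 0.15 (SE 0.13), since its levels overlapped the naive range widely.

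*Dusp6*, a cytoplasmic phosphatase selective for ERK, showed little difference between the groups. Its median was 20.3 CPM in naive rats (17.7 to 24.4), 19.0 CPM in bPYX+GFP rats (17.9 to 22.4) and 21.4 CPM in bPYX+NT3 rats (15.5 to 30.7). The NT3 group held both the lowest level, in rat 40, and the highest, in rat 17. The log2 fold change in bPYX+NT3 against bPYX+GFP rats was 0.13 (SE 0.14), and it was 0.01 without rat 17.

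*Dusp4*, a nuclear phosphatase of the same family, was near the limit of detection with 1 to 18 read-pairs in a library. It did not exceed 10 read-pairs in enough rats to be tested. Its median was 0.437 CPM in naive rats, 0.580 CPM in bPYX+GFP rats and 0.525 CPM in bPYX+NT3 rats, and the 3 groups overlapped. Fitted without the limit on low counts, its log2 fold changes were 0.44 (SE 0.36) in bPYX+GFP against naive, 0.59 (SE 0.40) in bPYX+NT3 against naive and 0.16 (SE 0.33) in bPYX+NT3 against bPYX+GFP rats.

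The transcription factors *Etv4* and *Etv5* belong to the PEA3 group of ETS factors, which sensory neurons need for parts of their peripheral wiring. The levels of *Etv5* were close together within each group. Its lowest, median and highest levels were 79.4, 86.0 and 91.3 CPM in naive rats, 73.1, 78.1 and 80.1 CPM in bPYX+GFP rats and 81.7, 89.8 and 95.9 CPM in bPYX+NT3 rats. The 6 bPYX+NT3 rats all lay above the 6 bPYX+GFP rats, so these groups did not overlap, and 5 of 6 bPYX+GFP rats lay below the lowest naive rat. Of all 11623 genes tested in that comparison, 0.0602% were higher in the NT3 group with no overlap. The log2 fold change of *Etv5* was 0.21 (SE 0.06) in bPYX+NT3 against bPYX+GFP rats, -0.13 (SE 0.05) in bPYX+GFP against naive rats and 0.07 (SE 0.06) in bPYX+NT3 against naive rats.

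*Etv4* was counted with 34 to 98 read-pairs in a library. Its median was 4.22 CPM in naive rats (3.42 to 5.87), 3.61 CPM in bPYX+GFP rats (3.12 to 4.17) and 4.06 CPM in bPYX+NT3 rats (3.23 to 5.97). All groups overlapped, and the highest rats were rat 42 among the naive and rat 11 among the NT3-treated rats. The log2 fold change was -0.23 (SE 0.15) in bPYX+GFP against naive rats and -0.12 without rat 42. It was 0.24 (SE 0.17) in bPYX+NT3 against bPYX+GFP rats, and 0.12 without rat 11.

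*Egr1*, an immediate early zinc finger factor induced by serum response factor and its ERK-activated partners, was the only one of the 8 genes with a higher fitted level in bPYX+GFP than in naive rats. Its lowest, median and highest levels were 2.67, 3.44 and 6.49 CPM in naive rats, 3.97, 4.44 and 7.23 CPM in bPYX+GFP rats and 4.75, 6.29 and 10.7 CPM in bPYX+NT3 rats. All 6 rats of each injured group lay above the naive median, and the highest levels of the groups were those of rats 41, 57 and 11. The log2 fold change was 0.76 (SE 0.26) in bPYX+NT3 against naive rats, 0.49 (SE 0.22) in bPYX+NT3 against bPYX+GFP rats and 0.28 (SE 0.24) in bPYX+GFP against naive rats. These values leaned on single rats. The difference between the NT3 and GFP groups was 0.31 without rat 11 and 0.64 without rat 57. That between GFP and naive rats was 0.12 without rat 57 and 0.46 without rat 41. In bPYX+NT3 against naive rats it lay between 0.58 (without rat 11) and 0.94 (without rat 41).

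*Plk2*, a polo-like kinase made in response to neuronal activity that acts on synaptic Ras regulators, was lower in bPYX+GFP rats than in either other group. Its lowest, median and highest levels were 56.8, 65.3 and 73.9 CPM in naive rats, 45.2, 55.6 and 59.9 CPM in bPYX+GFP rats and 53.5, 62.5 and 80.6 CPM in bPYX+NT3 rats. All 6 bPYX+GFP rats lay below the naive median, and 5 of 6 bPYX+NT3 rats lay above the highest bPYX+GFP rat. In log2 fold change, *Plk2* differed by -0.29 (SE 0.08) in bPYX+GFP against naive rats, 0.24 (SE 0.10) in bPYX+NT3 against bPYX+GFP rats and -0.04 (SE 0.09) in bPYX+NT3 against naive rats.

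*Vgf*, a secreted neuropeptide precursor first found as a transcript induced by nerve growth factor, had a higher median in bPYX+NT3 rats than in either other group. Its lowest, median and highest levels were 7.75, 14.0 and 23.4 CPM in naive rats, 8.59, 12.4 and 15.1 CPM in bPYX+GFP rats and 11.5, 16.6 and 29.8 CPM in bPYX+NT3 rats. The groups overlapped, although 4 of 6 bPYX+NT3 rats were above every bPYX+GFP rat, with rat 11 the highest. In log2 fold change, *Vgf* differed by 0.55 (SE 0.22) in bPYX+NT3 against bPYX+GFP rats, 0.24 (SE 0.27) in bPYX+NT3 against naive rats and -0.30 (SE 0.23) in bPYX+GFP against naive rats. Without rat 11 the first of these was 0.34 and the second 0.04. Without rat 42 the second was 0.41 and the last -0.14, and without rat 49 the last was -0.43 and was called.

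**Figure D1:**
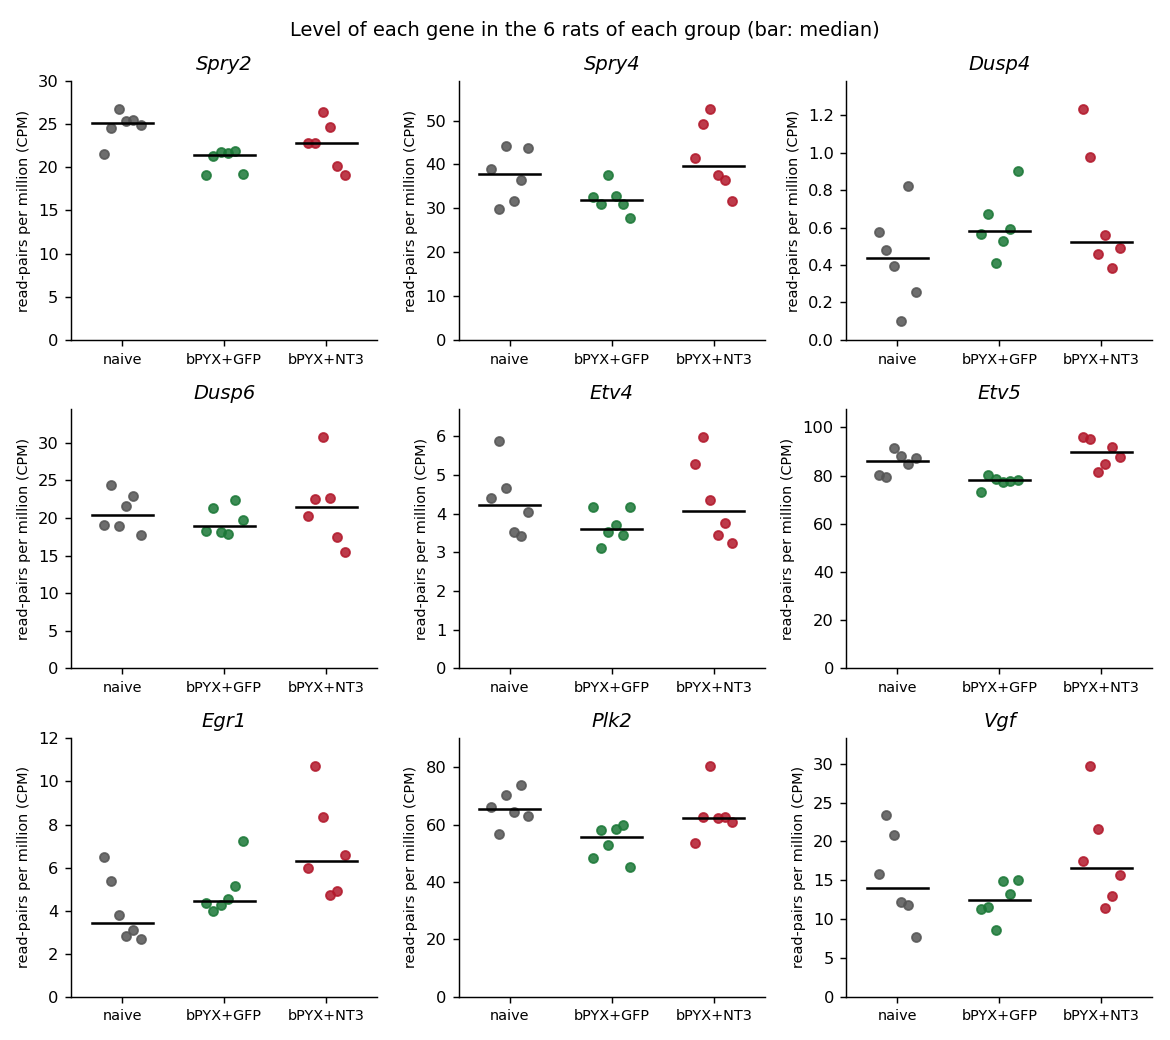
Level of each of the 9 genes with a row in the count table, in CPM (vertical axes, from 0), for the 6 rats of each group (points) with the group median (bar). *Etv5* is the gene whose bPYX+NT3 rats (81.7 to 95.9 CPM) all lie above the bPYX+GFP rats (73.1 to 80.1 CPM), while the other genes overlap.

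Set side by side, 7 of the 8 genes had a fitted level below naive in bPYX+GFP rats, with a median log2 fold change of -0.23, against a median of 0.01 over all 11601 genes tested. All 8, when bPYX+NT3 was set against bPYX+GFP rats, had a fitted level above, with a median of 0.24 against 0.00 over all 11623 genes. Of the 8, 6 were above in bPYX+NT3 against naive rats, with a median of 0.06. The first and the second comparison share the 6 bPYX+GFP rats, so their values are not independent of each other. The same holds for the other pairs of comparisons, which share naive or bPYX+NT3 rats.

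A gene was called when its p, before adjustment, fell below 0.05 by the quasi-likelihood F test of edgeR. In bPYX+GFP against naive rats it called *Spry2*, *Etv5* and *Plk2*, 3 of 8 genes and all lower, beside 2.52% of all genes called lower and 3.25% called in either direction. *Egr1* alone, 1 of 8 and higher, was called in bPYX+NT3 against naive rats, beside 3.09% of all genes called higher and 6.01% in either direction. *Spry4*, *Etv5*, *Egr1*, *Plk2* and *Vgf*, 5 of 8 and all higher, were called in bPYX+NT3 against bPYX+GFP rats, beside 1.08% of all genes called higher and 1.73% in either direction. The genes were chosen with these contrasts known, so nothing is read from these shares. The split of all calls in that last comparison was 125 higher and 76 lower, and 167 higher and 41 lower when libraries were scaled by their size alone, whereas the same 5 genes were called under both scalings.

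After adjustment, that test passed no gene of the whole table at 0.05, where unadjusted calls numbered 377, 703 and 201 in the order above. The likelihood ratio test of edgeR passed 13, 0 and 0 genes, and DESeq2 passed 16, 0 and 0, with an unadjusted p under 0.05 for 373, 819 and 211 genes. None of the 8 genes was among those that passed. In bulk tissue, fewer cells of a type and less RNA per cell cannot be told apart.

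Which genes are called in bPYX+NT3 against bPYX+GFP rats depended on single rats for *Egr1*, *Plk2* and *Vgf*. *Spry4* and *Etv5* were called whichever of the 12 rats was left out, with log2 fold changes between 0.30 and 0.44 and between 0.18 and 0.23. Such fits reuse the differences known when the genes were chosen, so a call that stays is no further support. Only 2 of the 8 genes, those same ones, were called without rat 5 or without rat 17, and 3 without rat 18 or without rat 11. Of all genes, 1.17%, 1.08%, 1.09% and 0.822% were called without rats 5, 17, 18 and 11, against 1.73% with all 12 rats. In bPYX+GFP against naive rats, *Spry2* and *Plk2* were called in each of the 12 fits that left out a rat, and *Etv5* was not called without rat 43 or without rat 5. Without those rats 2.37% and 2.35% of all genes were called, against 3.25% with all 12.

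**Figure D2:**
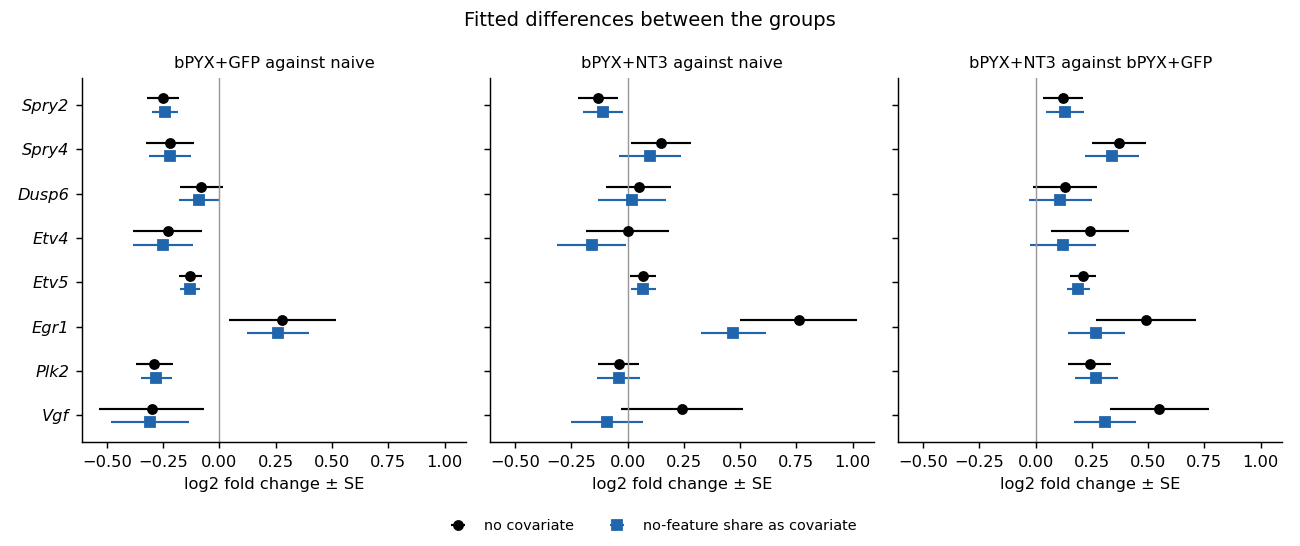
Log2 fold change (horizontal axes) with its standard error (bars) of the 8 genes tested, in the 3 comparisons, without a covariate (black circles) and with each library's no-feature share entered as a covariate (blue squares). In bPYX+NT3 against bPYX+GFP rats the squares of *Egr1* (0.27) and *Vgf* (0.31) lie nearer to 0 than the circles (0.49 and 0.55), whereas those of *Etv5*, *Plk2* and *Spry4* nearly coincide.

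Covariation between the rats of a group does not use the contrasts that chose the genes. The group mean of log2 CPM was subtracted from each rat, and the 36 pairs of the 9 genes were correlated over the 18 rats, with p from 100000 permutations of rats within groups and Benjamini-Hochberg adjustment over the 36. The genes did not vary as 1 block. A single pair passed an adjusted p of 0.05, *Egr1* with *Vgf* (r = 0.790, permutation p = 0.00076, adjusted p = 0.0274; Spearman's rho = 0.851, adjusted p = 0.00792). Within the naive, bPYX+GFP and bPYX+NT3 groups r was 0.707, 0.619 and 0.976. Without rats 11 and 41, the farthest from the median in *Egr1*, it was 0.821. On leaving out single rats r lay between 0.734 and 0.863. The pair no longer passed without rat 11 (permutation adjusted p = 0.179), nor without any one of rats 42, 44, 45, 57, 17, 23, 39 and 40 (adjusted p from 0.0536 to 0.0846).

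The next pairs were *Etv4* with *Vgf* (r = 0.703, permutation adjusted p = 0.0932), *Spry2* with *Dusp6* (r = 0.681, adjusted p = 0.113) and *Etv4* with *Egr1* (r = 0.651, adjusted p = 0.113), none of which passed. *Spry2* also had positive r with *Plk2* (0.534) and *Spry4* (0.523). In contrast, r between *Egr1* and *Spry2* was -0.198 and between *Egr1* and *Etv5* -0.248. Rat 11 was the highest NT3-treated rat for *Egr1*, *Vgf* and *Etv4*, and rat 17 was the highest for *Spry2*, *Spry4*, *Plk2* and *Dusp6*.

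**Figure D3:**
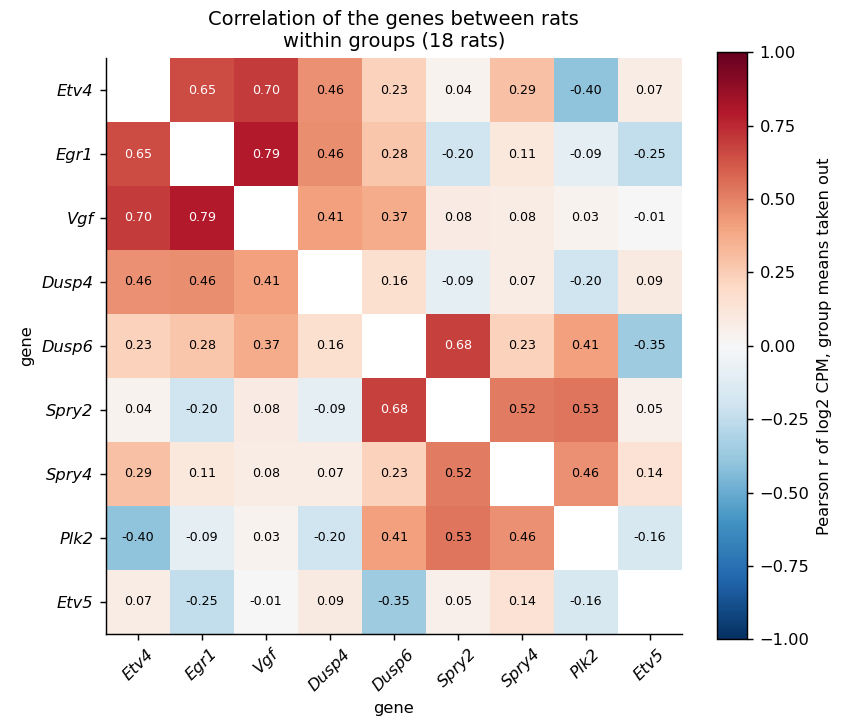
Pearson r of log2 CPM between the 9 genes (both axes) over 18 rats after subtraction of group means, from -1 (blue) to 1 (red). *Etv4*, *Egr1* and *Vgf* form one square of r from 0.65 to 0.79, and the cell of *Spry2* and *Dusp6* reads 0.68, while *Etv5* has r between -0.35 and 0.14 with every other gene.

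*Egr1*, *Vgf* and *Etv4* followed a measure of the libraries themselves. The no-feature share is the part of the counted read-pairs that fell in introns or between genes, and it ranged from 32.5% to 34.6% in naive, 31.7% to 34.2% in the GFP group and 30.8% to 34.2% in the NT3 group. It was correlated, together with depth and the shares of ambiguous and multiply mapped read-pairs, with each of the 9 genes within groups, a family of 36 relations added after the data had been seen. With the no-feature share, r was -0.877 for *Egr1* (permutation p = 1e-05, the smallest that the permutations can give; adjusted p = 0.00036; rho = -0.812, adjusted p = 0.0072). It was -0.774 for *Vgf* (permutation adjusted p = 0.00228; rho = -0.849, adjusted p = 0.0054) and -0.666 for *Etv4* (permutation adjusted p = 0.0194; rho = -0.666, adjusted p = 0.0325).

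Rats 11 and 57 had the lowest no-feature shares of all and lay farthest from their group means. Without both, r was -0.852 for *Egr1* (permutation adjusted p = 0.0396), -0.790 for *Vgf* (adjusted p = 0.0675) and -0.524 for *Etv4* (adjusted p = 0.341), so only the first still passed. Within groups, r of *Egr1* was -0.957 in naive, -0.842 in GFP-treated and -0.907 in NT3-treated rats. Over the 18 rats, r of *Spry2*, *Spry4*, *Etv5*, *Plk2* and *Dusp6* lay between -0.134 and 0.287, with adjusted p of 0.524 or more by permutation. Within single groups some of these were larger and differed in sign, as for *Spry4* with 0.787 in GFP-treated and -0.560 in NT3-treated rats. In all, 8 of the 36 relations passed, and those were the 3 genes with the no-feature and ambiguous shares, *Etv4* with the share on several locations (r = -0.493) and *Dusp4* with depth (r = 0.675). *Dusp4* had few read-pairs throughout.

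**Figure D4:**
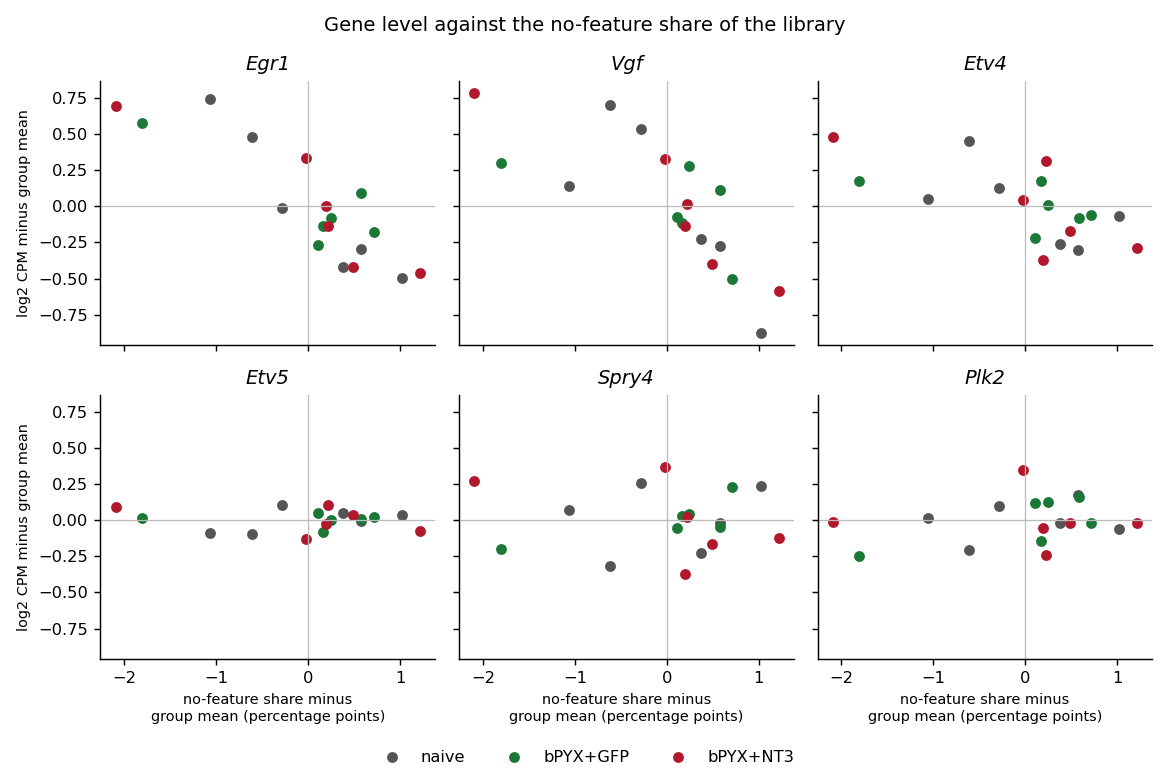
Log2 CPM minus the group mean (vertical axis) against the no-feature share minus the group mean in percentage points (horizontal axis) for 6 genes, 1 point per rat, coloured by group. *Egr1*, *Vgf* and *Etv4* (top, r = -0.877, -0.774 and -0.666) fall from left to right, with rat 11 and rat 57 at the left end, whereas *Etv5*, *Spry4* and *Plk2* (bottom, r = -0.080, -0.050 and 0.251) show no slope that passed the test.

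The no-feature share was then entered in the fit as a covariate, although its range differed between the groups. Its part in a difference and that of the group therefore cannot be told apart. In bPYX+NT3 against bPYX+GFP rats *Egr1* was no longer called, and its log2 fold change was 0.27 (SE 0.13) in place of 0.49 (SE 0.22). That of *Vgf* was 0.31 (SE 0.14) and stayed called, and in bPYX+NT3 against naive rats it turned from 0.24 to -0.09 (SE 0.16). *Egr1* in bPYX+NT3 against naive rats was 0.47 (SE 0.14) in place of 0.76 and stayed called. *Etv4* in bPYX+NT3 against naive rats was -0.16 (SE 0.15) in place of 0.00. The differences of *Spry4* (0.34, SE 0.12), *Etv5* (0.19, SE 0.05) and *Plk2* (0.27, SE 0.09) between the NT3 and GFP groups moved by at most 0.03, and those of *Spry2*, *Etv5* and *Plk2* in bPYX+GFP against naive rats by at most 0.01. *Spry4* was called in addition in that comparison (-0.22, SE 0.09), where 7.31% of all genes were called, against 3.25% without the covariate. *Egr1* and *Vgf* with the covariate taken out of both had r = 0.367 (permutation adjusted p = 0.536).

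The same 3 genes varied together with a large part of the transcriptome. Of the 11820 other genes with more than 10 read-pairs in at least 6 of the 18 rats, 32.4% had r of at least 0.5 with *Egr1*, 30.6% with *Etv4* and 28.6% with *Vgf*. The share was 6.93% for *Plk2*, 6.09% for *Dusp6*, 4.3% for *Spry2*, 1.02% for *Spry4* and 0.863% for *Etv5*. These are descriptions across genes, which are not independent of each other, in the same 18 libraries.

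The genes most like each member, by r of within-group deviations over 18 rats among 11821 genes, were mostly different for each. They were picked as the highest of 11820 values of r for each member, so high values arise from the picking alone, and none was tested. *Vgf* was most like *Qdpr* (r = 0.963), *Tubb2b* (0.957) and *Fabp5* (0.941), and *Egr1* most like *Meis3* (0.932), *Mospd3* (0.926) and *Trim65* (0.923). *Etv4* was most like *Fah* (0.895), *Adsl* (0.892) and *Mrpl58* (0.889). *Dusp6* was most like *Cx3cr1* (0.885), a chemokine receptor of macrophages, *Adamts1* (0.876) and *Tlr2* (0.872), an innate immune receptor. *Spry2* was most like *Ccnd1* (0.829), with *Tlr1* (0.779) also among its first 3, and *Spry4* most like *Hspa2* (0.840), *Prr5l* (0.796) and *Gfap* (0.759), an intermediate filament of glia. *Etv5* had the weakest likeness, to *Capn6* (0.737), *Racgap1* (0.708) and *Psca* (0.694). For *Plk2* the first 2 genes (0.881 and 0.813) had identifiers without a symbol and the third was *Nop16* (0.805).

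Cell type markers were summed as a check on the tissue. All 6 Schwann cell, 6 endothelial and 5 fibroblast markers, 5 of 6 macrophage markers (*Ptprc* was not matched), 7 of 8 neuronal and 4 of 5 satellite glial markers had read-pairs in each of the 18 rats, and the rows of *Snap25* and *Apoe* were at 0 in some. The neuronal sum spanned 10460 to 12720 CPM in naive, 11500 to 13540 CPM in GFP-treated and 10450 to 13600 CPM in NT3-treated rats. The Schwann cell sum spanned 2372 to 3611, 2012 to 3027 and 2365 to 2918 CPM in that order. The fibroblast sum spanned 2215 to 2989, 2044 to 2646 and 1627 to 2854 CPM. Both had a lower median in bPYX+GFP than in naive rats, as *Spry2*, *Etv5* and *Plk2* did. The other lists had a higher one. In that order their medians were 11750, 12250 and 11840 CPM for neurons and 863.9, 867.9 and 824.9 CPM for satellite glia. They were 144.7, 163.8 and 167 CPM for endothelial cells and 108.8, 110 and 105.1 CPM for macrophages. In NT3-treated rats the Schwann cell and fibroblast medians stayed below naive (2606 against 3075 CPM, and 2016 against 2659 CPM). Those of *Spry2* and *Plk2* did too, although *Plk2* was then near its naive level, whereas that of *Etv5* was above naive (89.8 against 86.0 CPM). From bPYX+GFP to bPYX+NT3 rats the fibroblast median fell from 2294 to 2016 CPM and the Schwann cell median rose from 2453 to 2606 CPM. The medians of *Spry2*, *Etv5* and *Plk2* rose. Between rats within groups, r of *Spry2* was -0.124 with the Schwann cell and 0.393 with the fibroblast list. For *Plk2* these were -0.358 and 0.145, and for *Etv5* 0.153 and -0.637. The part of any cell type in the differences of *Spry2*, *Etv5* and *Plk2* was not tested.

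Between rats, none of the 54 relations of the 9 genes with the mean log2 CPM of the 6 marker lists passed by Pearson's r (the smallest permutation adjusted p was 0.0508). *Egr1* had r = 0.736 with the neuronal and 0.653 with the Schwann cell list, and *Vgf* had r = 0.622 with the neuronal list. *Etv4* had r = 0.722 with the endothelial, 0.670 with the neuronal and 0.654 with the Schwann cell list. By rank, *Etv4* with the endothelial list passed (rho = 0.779, permutation adjusted p = 0.0238). These 3 genes thus did not single out 1 cell type. *Dusp6* had r = 0.569 with macrophages (permutation adjusted p = 0.136) and 0.536 with satellite glia (permutation adjusted p = 0.0514). *Etv5* had negative r with fibroblasts (-0.637, permutation adjusted p = 0.102) and macrophages (-0.545, permutation adjusted p = 0.159).

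The promoters of the genes were searched because *Egr1*, *Vgf* and *Plk2* are textbook targets of ERK-responsive factors. RefSeq promoters of build GRCr8, from 250 bases before to 50 bases after the start site, were at hand for 8 of the 10 genes, *Etv4* and *Dusp4* being those without, and *Spry2* had a second entry. The whole cyclic AMP response element TGACGTCA, a site of CREB, was found in *Plk2* and *Vgf*, against 1.83% of the 33469 promoters of the table. Both strands were searched for each motif. The 150 bases before the start sites of these 2 genes are shown with that element in capitals, for *Plk2* at chr2:43702386-43702535 on the plus strand and for *Vgf* at chr12:25277021-25277170 on the minus strand.

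Plk2: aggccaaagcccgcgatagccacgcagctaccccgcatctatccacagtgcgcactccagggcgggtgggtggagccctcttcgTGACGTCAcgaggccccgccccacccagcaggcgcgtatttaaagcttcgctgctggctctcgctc
Vgf: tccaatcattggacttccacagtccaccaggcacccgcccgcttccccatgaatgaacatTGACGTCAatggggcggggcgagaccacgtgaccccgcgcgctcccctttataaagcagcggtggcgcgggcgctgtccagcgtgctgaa

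The element began 66 bases before the start site in *Plk2* and 90 bases before it in *Vgf*. Although they share it, *Plk2* and *Vgf* did not vary together between rats (r = 0.032, permutation adjusted p = 0.932). The CArG box, the site of serum response factor, was found in *Egr1* alone, with 2 copies, against 1.64% of all promoters. The shorter TGACG, which also lies within TGACGTCA, was found in *Spry2*, *Egr1*, *Plk2* and *Vgf* (4 of 8, against 21.2%) and the ETS core CCGGAA in *Spry2* and *Spry4* (2 of 8, against 15% of promoters). Both matches of *Spry2* lay in the same entry, and its other entry held neither. A gene was counted if any of its entries matched, whereas the shares count each promoter entry. The EGR site GCGGGGGCG was in none of the 8, against 2.73%. Such matches describe the letters in these windows and are not evidence of binding.

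Of 81 other genes of the pathway, 63 were tested in each comparison. The calls numbered 3, 4 and 1 of 63 in the order above, beside 3.25%, 6.01% and 1.73% of all genes. In bPYX+GFP against naive rats all 3 were lower: *Ccnd1* (cyclin D1, -0.48, SE 0.08), the phosphatase *Dusp10* (-0.42, SE 0.14) and *Egr2* (-0.30, SE 0.12). When bPYX+NT3 was set against naive rats 3 were called higher and 1 lower, namely *Junb* (0.76, SE 0.35), the adaptor *Frs3* (0.47, SE 0.22), the neurotrophin receptor *Ngfr* (0.34, SE 0.13) and *Ccnd1* (-0.36, SE 0.10). *Junb* alone was called in bPYX+NT3 against bPYX+GFP rats (0.86, SE 0.39), from 4 to 64 read-pairs in a library, the most in rat 11. Without rat 11 that value was 0.44. In bPYX+NT3 against naive rats, *Junb* was then 0.35, *Frs3* 0.28 and *Ngfr* 0.23. The median log2 fold changes of the 63 were 0.01, 0.01 and 0.04. Within them, the 21 other transcriptional targets and effectors had medians of 0.00, 0.06 and 0.12, and the 15 other negative regulators of -0.03, -0.10 and 0.00. In bPYX+NT3 against bPYX+GFP rats 16 of the 21 and 8 of the 15 lay above 0, beside 51.3% of all genes. Of the 21, *Junb* alone was called there, and nothing is read from these directions. No gene of the cascade from Ras to ERK was called in any comparison, of 12 tested.

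The neurotrophin receptor *Ntrk2* (TrkB) had log2 fold changes of -0.02 (SE 0.07), 0.02 (SE 0.07) and 0.04 (SE 0.06) in that order, none of them called. *Ntrk3* (TrkC) and *Ntf3*, which encodes the rat's own neurotrophin-3, were not analysed here, and neither was the human transgene. The third Sprouty of the table, *Spry3*, had medians of 8.25, 7.28 and 7.70 CPM in naive, bPYX+GFP and bPYX+NT3 rats and was not called.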

How the data were processed

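The authors sequenced poly(A) RNA from stranded libraries as 50 bp read-pairs, aligned them to Rnor_6.0 with TopHat2, removed duplicates with Picard and counted read-pairs per RefSeq gene with HTSeq; the deposited table holds these raw counts for 15075 identifiers, of which 94.1% were matched here to a symbol in RefSeq's gene table. Removing duplicates can compress high counts. The genes and lists were chosen with earlier results of these data known.

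Each comparison was fitted on its 12 rats in R 4.3.3 with edgeR 4.0.16 (TMM, quasi-likelihood test, Benjamini-Hochberg adjustment) over genes with more than 10 read-pairs in at least 6 rats. The fit was tested on simulated data. SE is the size of the log2 fold change over the square root of F. Levels and correlations used TMM sizes over 18 rats, the latter log2 CPM with a prior count of 2 in numpy 2.4.6. Where a symbol had several rows, the one with the highest mean was used. Text names the 10 genes, other pathway genes with an unadjusted p under 0.05, neurotrophin receptors, and the 3 genes most like each member. Some genes that this rule names are not reported here. Alternatives were DESeq2 1.42.0, edgeR's likelihood ratio test, other scalings and filters, 1 fit over 18 rats, a covariate, other groupings and leaving out each rat. The rats were separate animals.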

Additional observations from a re-analysis of the deposited data

Results flagged for a closer look

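In the 27 groups of 6 rats (9 genes in 3 groups), a rat stood apart from the other 5 by Dixon's criterion once, and chance gives about 1 in 20 such groups. This was *Etv5* in bPYX+GFP rats, where rat 5 had the lowest level, 73.1 CPM from 773 read-pairs, against a median of 78.3 CPM in the other 5, a gap of 0.635 of the group's range in log2 CPM. Without rat 5 the log2 fold change of *Etv5* in bPYX+NT3 against bPYX+GFP rats was 0.19.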

How the results depend on the processing

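The called genes of the 10 numbered 3 in bPYX+GFP against naive, 1 in bPYX+NT3 against naive and 5 in bPYX+NT3 against bPYX+GFP rats. Leaving out each rat gave 2 to 4, 1 in each fit, and 2 to 5. Of all genes, 2.35% to 5.16%, 3.14% to 11.9% and 0.822% to 19.8% were called in those fits. Grouping by the recorded titles, with or without their replicate block, gave 0 in all 3. The other pathway genes called (3, 4 and 1) ranged over 2 to 4, 1 to 9 (1 without rat 11, 9 without rat 41 or rat 23) and 0 to 12 (12 without rat 57). The share of all genes called moved with these counts, from 6.01% to 3.14%, 10.2% and 11.9% without rats 11, 41 and 23, and from 1.73% to 19.8% without rat 57. The other pathway genes called numbered 6 and 0 in the first and the last comparison with the no-feature share as covariate. Of all genes, 7.31% and 1.94% were then called. With the titles the other pathway genes called were 1, 2 and 3, beside 1.49%, 2.85% and 2.26% of all genes. With the titles' block they were 1, 2 and 5, beside 0.779%, 1.72% and 2.26%.

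With the titles, and then with their replicate block, directions turned among the called genes for *Plk2* (0.04 and 0.05) and *Egr2* (0.01 in both) in bPYX+GFP against naive rats. The NT3 comparison with naive rats turned for *Egr1* (-0.61 in both), *Frs3* (-0.26 and -0.30), *Junb* (-0.78 and -0.57), *Ccnd1* (0.23 and 0.22) and *Ngfr* (-0.23 in both). That with bPYX+GFP rats turned for *Egr1* (-0.39 and -0.45), *Vgf* (-0.21 and -0.23) and *Junb* (-0.41 and -0.42). The cause of the disagreement between titles and heading was not tested.

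Same-numbered rats of the heading's groups deviated together (r over 0.1) in 2, 5 and 3 of 6 pairs. Their r lay between -0.37 and 0.32, between -0.30 and 0.53 and between -0.40 and 0.50. The highest r was with the rat of the same number for 0, 2 and 2 of 6 rats. These values do not settle whether the numbers pair the rats, and the main fits treat them as unpaired. A replicate block, added after seeing the data, called 3 of the 8 genes in bPYX+NT3 against bPYX+GFP rats (*Spry4*, *Etv5* and *Plk2*) and 2 in bPYX+GFP against naive rats (*Spry2* and *Plk2*). The block called *Egr1* alone of the 8 genes in bPYX+NT3 against naive rats. It called 17 of the 63 other pathway genes there, beside 25.3% of all genes, so nothing is read from the 17. Against bPYX+GFP rats it called 0 other pathway genes in the NT3 group. Of all genes it called 316 of 11601 in bPYX+GFP against naive rats and 2962 of 11693 in bPYX+NT3 against naive rats. The number was 130 of 11623 in bPYX+NT3 against bPYX+GFP rats.

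Pairs of genes that passed (1) numbered 3 with library size alone, 6 with the titles and 3 with group means left in. They were 0 with the no-feature covariate and 0 without rats 11 and 57, both added after seeing the data, and 0 to 2 on leaving out a rat (0 without rats 42, 44, 45, 57, 11, 17, 23, 39 or 40, 2 without rat 49). Relations with marker lists (0) were 9 with library size alone, 1 with the titles, 2 with group means left in and 0 to 5 on leaving out a rat (5 without rat 5). Those with library measures (8) were 14 with library size alone, 1 without rats 11 and 57, and 4 to 13 on leaving out a rat (4 without rat 11, 13 without rat 45). Few read-pairs limit what can be said of *Dusp4*.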
